A study of Homo sapiens with 24 samples.

Results

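Phosphorylation of the translation initiation factor eIF2alpha is set by 4 kinases and removed by a phosphatase that 2 alternative subunits direct to it. The genes described here are the kinases EIF2AK1, EIF2AK2, EIF2AK3 and EIF2AK4, the phosphatase subunits PPP1R15A and PPP1R15B, and OMA1, the mitochondrial protease that feeds the pathway. They were taken by symbol from the deposited count tables, and all 7 were found among 25168 genes. The libraries came from BXPC3 and PANC1, established human lines of pancreatic ductal adenocarcinoma. Cells of each line were exposed for 24 h to vehicle, to SR4 (5 uM), to lonidamine (300 uM) or to the 2 compounds together. The labels name no genetic change and use their genotype field for the treatment, and they do not state the doses inside the combination separately. Each line had 4 groups of 3 libraries, 24 libraries in all. The labels do not say whether the 3 libraries of a group came from separate cultures, so every p-value measures only the spread between these libraries. SR4 is a code name, and the compound has been described as an uncoupler of mitochondria. Lonidamine blocks pyruvate entry into mitochondria, lactate export and respiratory complex II.

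The pathway is known as the integrated stress response. Each kinase senses its own trouble: EIF2AK1 (HRI) heme shortage and mitochondrial damage, EIF2AK2 (PKR) double-stranded RNA, EIF2AK3 (PERK) unfolded protein in the endoplasmic reticulum, and EIF2AK4 (GCN2) uncharged tRNA and stalled ribosomes. Phosphorylated eIF2 blocks its own exchange factor, eIF2B, which lowers general protein synthesis and lets a few mRNAs, among them that of the transcription factor ATF4, be translated more. PPP1R15A (GADD34) is itself a target of this programme and closes a feedback loop, while PPP1R15B (CReP) is the form made in unstressed cells. OMA1 sits in the inner mitochondrial membrane, becomes active when the membrane potential falls, and cuts OPA1 and DELE1, and the cut DELE1 activates EIF2AK1. The counts are of mRNA, so kinase activity and phosphorylation were not analysed here.

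Total gene counts per library ran from 8873041 to 11822495. Values are given as CPM, a gene's count as a rate per fixed total of counts, after TMM scaling within a line, and changes as log2 changes from the quasi-likelihood test of edgeR, adjusted over all tested genes by the Benjamini-Hochberg method and called at an adjusted p under 0.05. CPM is a share of each library, so fewer cells of a kind and less RNA per cell cannot be told apart. SMAD4, a gene that BXPC3 is known to lack, was at 0 counts in the BXPC3 vehicle libraries, which allows up to 0.337 CPM, and stood at 51.4 ± 1.89 CPM (SD, n = 3) in those of PANC1. All 6 epithelial markers were present in both lines, although KRT7, EPCAM and CDH1 were low in PANC1 vehicle libraries, at 7.56, 29.1 and 17.5 CPM. Their summed level fell from a range of 6014 to 6522 CPM with vehicle to 3526 to 3558 CPM with the combination in BXPC3, and from 3644 to 3810 to 843 to 886 CPM in PANC1. EPCAM alone went the other way, rising from 213 to 291 CPM with the combination in BXPC3. Summed markers of endothelial and acinar cells reached 10.8 CPM at most, in a BXPC3 vehicle library. Summed immune markers rested on CD68 and reached 219.9 CPM, in a PANC1 SR4 library. Summed fibroblast markers rested on COL1A1 and reached 91.1 CPM, in a PANC1 vehicle library. The mesenchymal genes VIM and ZEB1 stood at 4200 and 61.5 CPM in PANC1 vehicle, against 64.7 and 1.31 CPM in BXPC3 vehicle. The part of these shifts and line differences in the results below was not tested.

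On GRCh38 the gene models of the tables place EIF2AK1 on chromosome 7 (6022244 to 6059230, minus strand), EIF2AK2 on chromosome 2 (37099210 to 37157065, minus strand) and EIF2AK3 on the same chromosome (88556741 to 88627576, minus strand). EIF2AK4 lies on chromosome 15 (39934146 to 40035591, plus strand) and PPP1R15A on chromosome 19 (48872392 to 48876057, plus strand). PPP1R15B and OMA1 lie on chromosome 1, at 204403387 to 204411791 and 58415384 to 58546802, both on the minus strand. The model used for OMA1 is longer than that of RefSeq, which spans 58480719 to 58546726. AIMP2 overlaps EIF2AK1 and GPATCH11 overlaps EIF2AK2 on the opposite strand, and whether counting used strand is not given in the sources here. AIMP2 had at most 673 counts in a BXPC3 library and 1510 in a PANC1 library, against at least 2313 and 3647 for EIF2AK1. GPATCH11 had at most 140 and 439 counts, against at least 1019 and 804 for EIF2AK2.

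RefSeq promoter windows on GRCh38.p14, running from 250 bases before to 50 bases after an annotated start, were found for 6 of the 7 genes. Searched on both strands were the C/EBP-ATF composite element TGATGNAAN, through which ATF4 is known to act, the cyclic AMP response element TGACGTCA, and GAAANNGAA, the core of the interferon-stimulated response element. The motif TGATGNAAN occurred in 3.63% of 34796 distinct promoter windows of this length, TGACGTCA in 1.84% and GAAANNGAA in 8.11%. The last 2 motifs were added after the windows had been seen. Stretches are shown for the 3 genes whose window held a match, which capitals mark, written 5′ to 3′ on the strand of the gene.
PPP1R15A, chr19:48872171-48872391, plus strand: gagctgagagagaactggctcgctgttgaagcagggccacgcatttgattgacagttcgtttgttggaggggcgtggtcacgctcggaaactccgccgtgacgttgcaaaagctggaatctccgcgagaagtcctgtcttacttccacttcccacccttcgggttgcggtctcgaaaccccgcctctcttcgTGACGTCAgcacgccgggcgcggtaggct
PPP1R15B, chr1:204411818-204412067, minus strand: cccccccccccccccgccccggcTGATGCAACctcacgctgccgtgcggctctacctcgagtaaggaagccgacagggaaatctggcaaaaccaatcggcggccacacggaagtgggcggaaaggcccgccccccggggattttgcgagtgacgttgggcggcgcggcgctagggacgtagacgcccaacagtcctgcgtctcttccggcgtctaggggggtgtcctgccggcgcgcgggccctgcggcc
EIF2AK2, chr2:37156967-37156996, minus strand: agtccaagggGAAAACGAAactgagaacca
In PPP1R15A the cyclic AMP element lay 58 to 51 bases before the RefSeq start, and in PPP1R15B the composite element lay 227 to 219 bases before it. The interferon element core of EIF2AK2 ran from 6 bases before the RefSeq start to 2 bases past it. The deposited gene model of EIF2AK2 starts further upstream, at 37157065, so the match lies inside that model. None of the 3 motifs was found in the windows of EIF2AK3, EIF2AK4 and OMA1. The EIF2AK3 window did not reach beyond the outermost annotated start of that gene (88628145), so sequence upstream of that start was not searched. A match describes letters and is no evidence of binding.

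With the combination, EIF2AK3 had the largest change of the 4 kinases in both lines. It encodes PERK, which spans the endoplasmic reticulum membrane and is released from the chaperone HSPA5 when unfolded protein builds up. In BXPC3 the vehicle libraries held 18.9, 15.7 and 15.4 CPM of EIF2AK3. With SR4 they held 33.5, 38.5 and 35.1 CPM, with lonidamine 28.6, 29.4 and 29.7 CPM, and with the combination 68.9, 73.1 and 74.9 CPM. Every treated library of BXPC3 lay above every vehicle library, and every combination library lay above every library of a single compound. The change was 1.09 ± 0.082 log2 with SR4 (± SE, n = 3 per group, as for all log2 changes below), 0.81 ± 0.086 with lonidamine and 2.11 ± 0.076 with the combination, the last a 4.33-fold rise (adjusted p = 2.47e-19).

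In PANC1 the vehicle libraries held 28.6, 27.0 and 27.0 CPM of EIF2AK3. With SR4 they held 31.7, 27.5 and 31.0 CPM, which overlaps the vehicle range. With lonidamine they held 35.5, 37.9 and 40.2 CPM, and with the combination 102.6, 103.1 and 100.4 CPM, above all other libraries. The SR4 value of EIF2AK3, 0.13 ± 0.075 log2, did not pass the test (adjusted p = 0.130, 95% interval -0.03 to 0.28), although it passed without SR4 replicate 2 (0.19 log2, adjusted p = 0.0362). Lonidamine raised EIF2AK3 by 0.46 ± 0.070 log2 and the combination by 1.89 ± 0.062 log2, a 3.71-fold rise (adjusted p = 6.63e-21). The SR4 libraries of EIF2AK3 thus stayed near vehicle in PANC1, whereas in BXPC3 they stood above those of lonidamine.

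**Figure D1:**
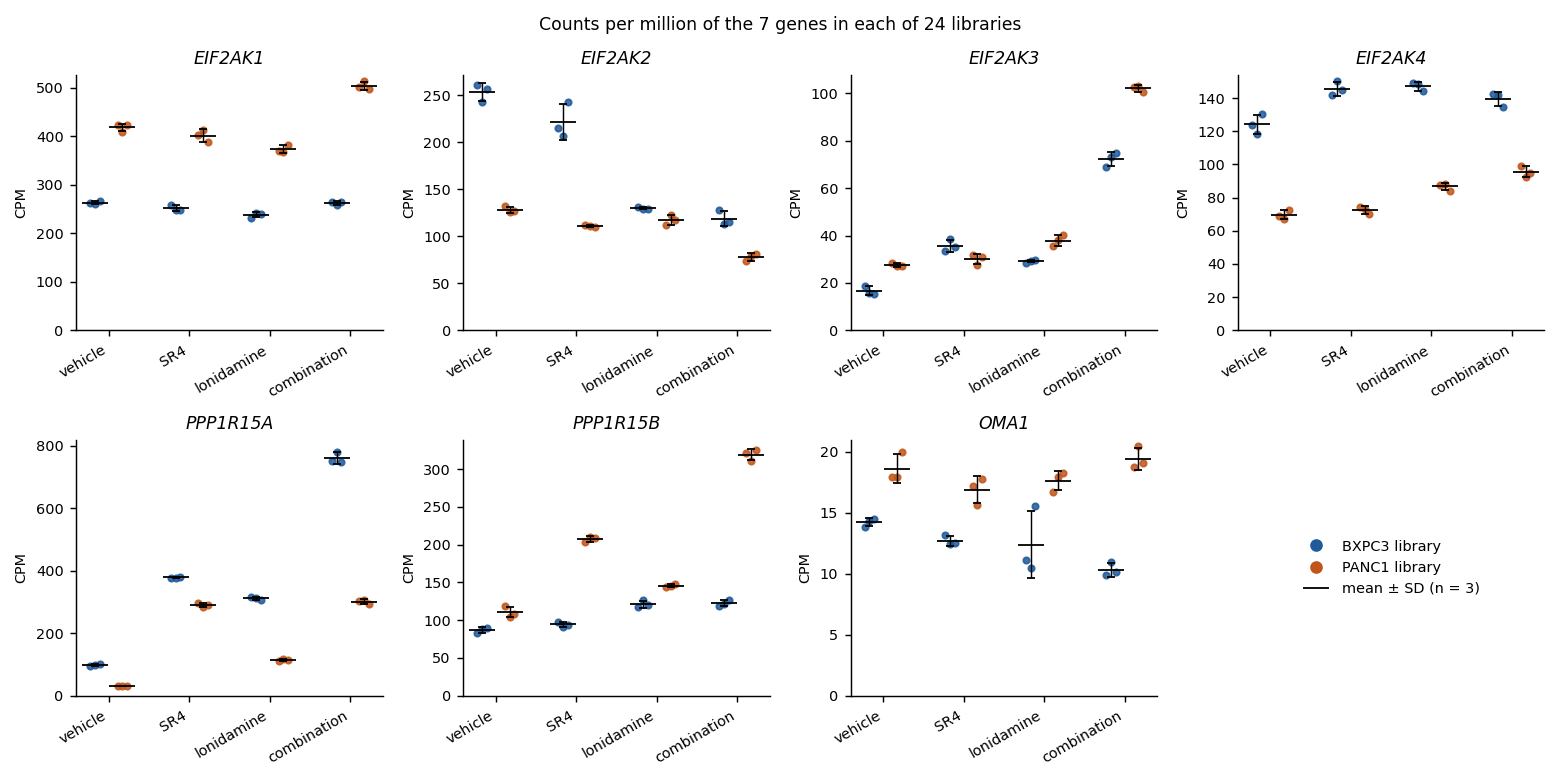
CPM (vertical axis, linear from 0) of the 7 genes in each library by treatment (horizontal axis), with the mean and SD of 3 libraries. CPM was scaled within each line, so the height of the lines against each other is only approximate. With the combination PPP1R15A and EIF2AK3 rose and EIF2AK2 fell in both lines, and the lonidamine libraries of BXPC3 spread widely for OMA1.

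EIF2AK2 fell in all 6 comparisons with vehicle. It encodes PKR, whose gene is itself induced by interferon. BXPC3 vehicle libraries held 260.4, 242.5 and 256 CPM, SR4 libraries 215, 206 and 243 CPM, lonidamine libraries 131, 129 and 129 CPM, and combination libraries 128, 114 and 115 CPM. The SR4 libraries of EIF2AK2 touched the vehicle range, whereas lonidamine and combination libraries lay well below it without overlap. The values were -0.19 ± 0.050 log2 with SR4 (adjusted p = 0.00135), -0.96 ± 0.052 with lonidamine (adjusted p = 5.01e-15) and -1.09 ± 0.053 with the combination (adjusted p = 2.19e-16), the last 2.13-fold lower than vehicle. In PANC1 the vehicle libraries held 132, 126 and 127 CPM of EIF2AK2, SR4 libraries 112, 111 and 110.0 CPM, lonidamine libraries 112, 123 and 118 CPM, and combination libraries 73.5, 78.6 and 81.3 CPM. None of the treated PANC1 libraries reached the vehicle range. EIF2AK2 fell there by 0.21 log2 with SR4 (-0.21 ± 0.047) and by 0.72 log2 with the combination (-0.72 ± 0.048, 1.65-fold lower, adjusted p = 7.51e-14). The PANC1 lonidamine value was small, -0.13 ± 0.046 log2 (adjusted p = 0.0161), and lost its call without vehicle replicate 1 (adjusted p = 0.0781) or lonidamine replicate 1 (adjusted p = 0.0960). That call was also lost with the DESeq2 Wald test (adjusted p = 0.0547) and without the low-count filter (adjusted p = 0.0708).

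EIF2AK1, the HRI kinase that receives the DELE1 signal from mitochondria, moved little. In BXPC3 it stood at 262, 260.2 and 266 CPM with vehicle, at 259, 248 and 249 CPM with SR4, at 233, 242 and 240.0 CPM with lonidamine, and at 264, 258 and 265 CPM with the combination. Only lonidamine changed it in BXPC3, by -0.14 ± 0.036 log2 (adjusted p = 0.000956), and the combination value was -0.0032 ± 0.036 log2 (95% interval -0.08 to 0.07). PANC1 vehicle libraries held 423, 409 and 423 CPM of EIF2AK1, SR4 libraries 403, 414 and 389 CPM, lonidamine libraries 371, 368 and 382 CPM, and combination libraries 501, 513 and 498 CPM. Here lonidamine lowered it (-0.16 ± 0.035 log2, adjusted p = 0.000178) and the combination raised it (0.27 ± 0.035 log2, 1.21-fold, adjusted p = 5.89e-08), with no overlap with vehicle in either case. EIF2AK1 with SR4 alone gave -0.06 log2 in each line and did not pass in either.

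EIF2AK4, the GCN2 kinase that reads amino acid shortage on ribosomes, rose modestly. BXPC3 libraries held 124, 118 and 130.2 CPM with vehicle, 142, 150.0 and 145 CPM with SR4, 149, 148 and 144 CPM with lonidamine, and 142, 142 and 135 CPM with the combination. All 9 treated libraries lay above the 3 vehicle libraries. The rises of EIF2AK4 in BXPC3 were 0.23 ± 0.044, 0.24 ± 0.044 and 0.17 ± 0.045 log2 in that order (largest adjusted p = 0.00129), at most 1.19-fold. In PANC1 the vehicle libraries held 69.0, 67.1 and 72.5 CPM and SR4 libraries 74.4, 73.3 and 69.9 CPM, which overlap. EIF2AK4 reached 87.8, 88.3 and 84.1 CPM with lonidamine and 99.2, 92.5 and 94.9 CPM with the combination there. The SR4 value was 0.06 ± 0.052 log2 (adjusted p = 0.307), against 0.32 ± 0.050 for lonidamine and 0.46 ± 0.050 for the combination, a 1.37-fold rise.

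PPP1R15A had the largest rise of the 7 genes in every treatment of both lines. It encodes GADD34, the stress-induced subunit that directs protein phosphatase 1 to eIF2alpha. BXPC3 libraries held 94.5, 99.3 and 101.5 CPM with vehicle, 378, 377 and 381 CPM with SR4, 315, 313 and 305 CPM with lonidamine, and 750.2, 782 and 749 CPM with the combination. The 4 groups did not overlap, and the order vehicle, lonidamine, SR4, combination held in every library. PPP1R15A rose 3.85-fold with SR4 (1.94 ± 0.038 log2), 3.16-fold with lonidamine (1.66 ± 0.038) and 7.72-fold with the combination (2.95 ± 0.038, adjusted p = 8.07e-29). By size, the combination rise ranked 123 from the top among 12920 genes tested in BXPC3.

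In PANC1 the vehicle level of PPP1R15A was lower, at 30.3, 32.3 and 30.7 CPM. SR4 libraries held 298, 285 and 291 CPM, lonidamine libraries 111, 117 and 113 CPM, and combination libraries 303, 307 and 293 CPM. SR4 and combination libraries of PANC1 overlapped, and both lay far above lonidamine. The rise was 9.38-fold with SR4 (3.23 ± 0.048 log2, adjusted p = 3.47e-28, rank 57 from the top among 12514 genes), 3.66-fold with lonidamine (1.87 ± 0.051) and 9.69-fold with the combination (3.28 ± 0.048, adjusted p = 1.66e-28, rank 94). PPP1R15A with the combination differed from SR4 alone by 0.05 ± 0.036 log2 in PANC1 (adjusted p = 0.266, 95% interval -0.03 to 0.12).

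PPP1R15B, the constitutive subunit CReP, rose in all groups but by less. BXPC3 libraries held 83.0, 88.6 and 89.5 CPM with vehicle, 98.1, 91.4 and 94.1 CPM with SR4, 117, 126 and 121 CPM with lonidamine, and 119, 122 and 127 CPM with the combination. Lonidamine and combination libraries stood clear of vehicle by a wide gap and SR4 libraries by a narrow one. PPP1R15B rose by 0.48 ± 0.048 log2 with lonidamine and by 0.49 ± 0.048 with the combination in BXPC3. Its SR4 value, 0.12 ± 0.049 log2, was close to the threshold (adjusted p = 0.0312) and lost the call with the size factors of DESeq2 (adjusted p = 0.0543), and without vehicle replicate 1 (adjusted p = 0.157), SR4 replicate 1 (adjusted p = 0.135) or the unnumbered SR4 replicate (adjusted p = 0.0561). That call was also lost with the DESeq2 Wald test (adjusted p = 0.127) and without the low-count filter (adjusted p = 0.0618). In PANC1, PPP1R15B stood at 119, 104.8 and 109 CPM with vehicle, at 203, 211 and 209 CPM with SR4, at 144, 146 and 148 CPM with lonidamine, and at 322, 311 and 325 CPM with the combination. The 4 groups of PANC1 were fully separate, in the order vehicle, lonidamine, SR4, combination. PPP1R15B rose there by 0.91 ± 0.044 log2 with SR4, 0.40 ± 0.044 with lonidamine and 1.53 ± 0.042 with the combination, a 2.88-fold rise (adjusted p = 1.27e-22).

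OMA1 mRNA was low and changed in 1 of 6 comparisons with vehicle. BXPC3 libraries held 13.8, 14.4 and 14.5 CPM with vehicle, 13.2, 12.4 and 12.5 CPM with SR4, 11.1, 10.5 and 15.5 CPM with lonidamine, and 9.89, 10.9 and 10.1 CPM with the combination. Lonidamine replicate 3 stood above all vehicle libraries, and replicates 1 and 2 stood below them. OMA1 fell by 0.46 log2 with the combination in BXPC3 (-0.46 ± 0.13, 1.38-fold lower, adjusted p = 0.00188). SR4 gave -0.16 ± 0.12 log2 and lonidamine -0.20 ± 0.12 log2, neither of which passed, and without lonidamine replicate 3 the latter became -0.40 log2 (adjusted p = 0.00447). PANC1 libraries held 17.9, 17.9 and 19.99 CPM of OMA1 with vehicle, 17.2, 15.7 and 17.8 CPM with SR4, 16.7, 17.9 and 18.3 CPM with lonidamine, and 18.8, 20.4 and 19.1 CPM with the combination. No PANC1 value of OMA1 passed, the lowest adjusted p being 0.185, and the combination interval ran from -0.13 to 0.25 log2. At 90 to 222 counts per library, changes of this gene were measured with an SE of 0.091 to 0.13 log2, the widest of the 7.

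**Figure D2:**
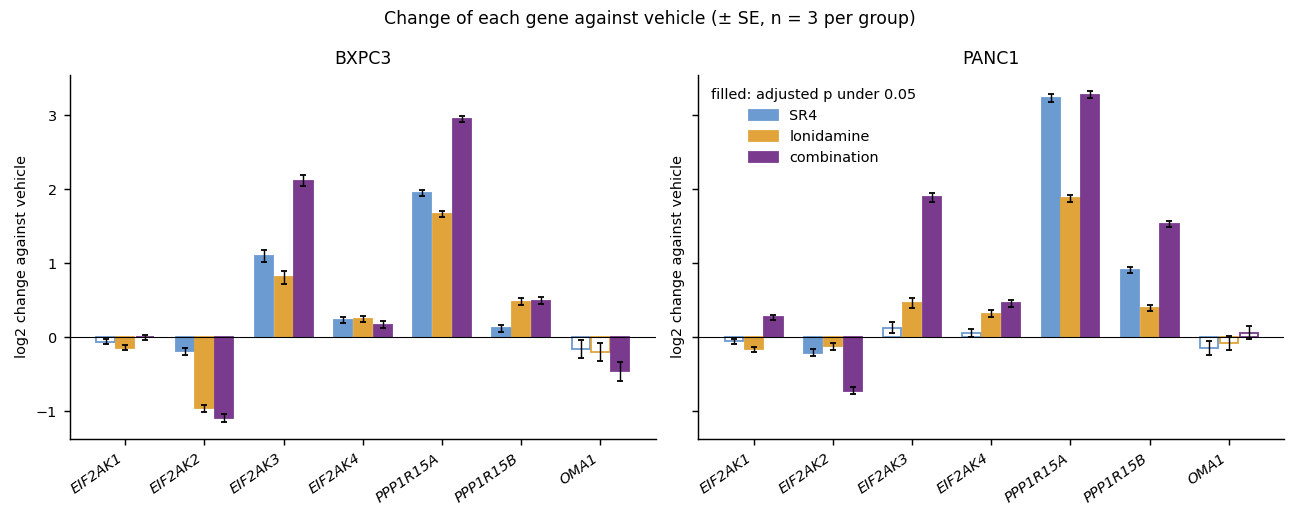
Log2 change against vehicle (vertical axis) of each gene (horizontal axis) with SR4, lonidamine and the combination, as bars with SE (n = 3 per group) in each line. Filled bars passed at an adjusted p under 0.05. PPP1R15A reached 2.95 in BXPC3 and 3.28 in PANC1 with the combination, and EIF2AK2 fell most in BXPC3.

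Counted over the 7 genes, 5 passed with SR4 in BXPC3 (4 higher, 1 lower), when 67.2% of all tested genes did. With lonidamine 6 passed (4 higher, 2 lower; 67.5% of all genes), and with the combination 6 (4 higher, 2 lower; 79.2%). In PANC1, 3 passed with SR4 (2 higher, 1 lower; 71.7% of all genes), 6 with lonidamine (4 higher, 2 lower; 69.2%) and 6 with the combination (5 higher, 1 lower; 81.1%). Most genes of these cells passed in every comparison, so the number of kinase and phosphatase genes that passed does not set them apart. The SR4 count in PANC1 became 5 without SR4 replicate 2, when EIF2AK1 (-0.08 log2) and EIF2AK3 passed too. All 7 genes met the filter on low counts in both lines.

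The combination was next set against each compound alone, which assumes that it held the same doses. Against SR4 in BXPC3, 5 of the 7 genes passed (60.8% of all genes). EIF2AK3 was higher by 1.02 ± 0.068 log2, PPP1R15A by 1.005 ± 0.034 and PPP1R15B by 0.37 ± 0.048, and EIF2AK2 was lower (-0.90 ± 0.054). OMA1 was also lower, at -0.30 ± 0.13 log2, but at an adjusted p of 0.0491 that rose to between 0.0518 and 0.118 when any SR4 or combination library was left out. The OMA1 call was also lost with the size factors of DESeq2 (adjusted p = 0.0525), its Wald test (adjusted p = 0.126) and without the low-count filter (adjusted p = 0.0510). Against lonidamine in BXPC3, 4 passed (60.8% of all genes): EIF2AK3 at 1.30 ± 0.070 log2, PPP1R15A at 1.29 ± 0.034, EIF2AK1 at 0.14 ± 0.036, and EIF2AK2 at -0.13 ± 0.056 (adjusted p = 0.0464). This last call of EIF2AK2 was lost with the size factors of DESeq2 (adjusted p = 0.0604) and with its Wald test (adjusted p = 0.0825). Loss of the call also came when any lonidamine library was left out (largest adjusted p = 0.0964) and without combination replicate 2 (adjusted p = 0.190) or 3 (adjusted p = 0.158). PPP1R15B did not differ detectably between combination and lonidamine in BXPC3 (0.02 ± 0.047 log2, 95% interval -0.08 to 0.11).

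In PANC1, 5 genes passed for the combination against SR4 (66.5% of all genes) and 6 against lonidamine (74.6%). EIF2AK3 led both, at 1.76 ± 0.061 and 1.43 ± 0.057 log2, and against SR4 it ranked 72 from the top among all tested genes. EIF2AK1 was higher than with either compound alone, by 0.33 ± 0.035 and 0.43 ± 0.035 log2, and EIF2AK2 was lower (-0.51 ± 0.049 and -0.60 ± 0.047). PPP1R15B was higher by 0.62 ± 0.040 and 1.13 ± 0.040 log2. PPP1R15A exceeded lonidamine by 1.40 ± 0.039 log2. EIF2AK4 exceeded SR4 by 0.40 ± 0.049 log2 and lonidamine by 0.14 ± 0.047, the latter losing its call without combination replicate 1 (adjusted p = 0.0531).

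The 2 compounds alone also differed. In BXPC3, 4 of the 7 genes passed for SR4 against lonidamine (46.7% of all genes): EIF2AK2 was higher with SR4 by 0.77 ± 0.053 log2, EIF2AK3 by 0.28 ± 0.076 and PPP1R15A by 0.28 ± 0.035, while PPP1R15B was lower (-0.36 ± 0.048). In PANC1, 5 passed (66.2% of all genes). PPP1R15A was higher with SR4 by 1.36 ± 0.039 log2, PPP1R15B by 0.51 ± 0.041 and EIF2AK1 by 0.10 ± 0.035, whereas EIF2AK3 (-0.33 ± 0.069) and EIF2AK4 (-0.26 ± 0.049) were lower. The call of EIF2AK1 was lost without lonidamine replicate 2 (adjusted p = 0.0542) and without the low-count filter (adjusted p = 0.0511). EIF2AK3 and PPP1R15B thus stood on opposite sides of the SR4 and lonidamine contrast in the 2 lines, each passing in both.

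Departure of the combination from the sum of the 2 single log2 changes was tested as an interaction. Reading it as a shortfall or an excess again assumes that the combination held the same doses. In BXPC3 the departure passed for 3 genes (49.2% of all genes). PPP1R15A reached 2.95 log2 where the single changes sum to 3.61, a departure of -0.66 ± 0.051 (adjusted p = 3.35e-11). EIF2AK4 fell short of its sum too (-0.30 ± 0.062, adjusted p = 0.000215), and EIF2AK1 exceeded it (0.20 ± 0.050, adjusted p = 0.00169). EIF2AK3 was not distinguishable from its sum of 1.90 log2 in BXPC3 (0.21 ± 0.11, adjusted p = 0.118, 95% interval -0.02 to 0.44).

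In PANC1 the departure passed for 5 genes (60.9% of all genes). PPP1R15A showed the largest shortfall, -1.83 ± 0.063 log2 (adjusted p = 2.59e-19), with 3.28 observed beside a sum of 5.10. EIF2AK3 went the other way: its single changes sum to 0.59 log2 and the combination gave 1.89, an excess of 1.30 ± 0.095 (adjusted p = 2.65e-12). EIF2AK1 exceeded its sum by 0.49 ± 0.049 log2 and PPP1R15B by 0.22 ± 0.059, and EIF2AK2 fell further than its sum (-0.39 ± 0.067). OMA1 in PANC1 had an excess of 0.28 ± 0.13 log2 that did not pass (adjusted p = 0.0662).

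**Figure D3:**
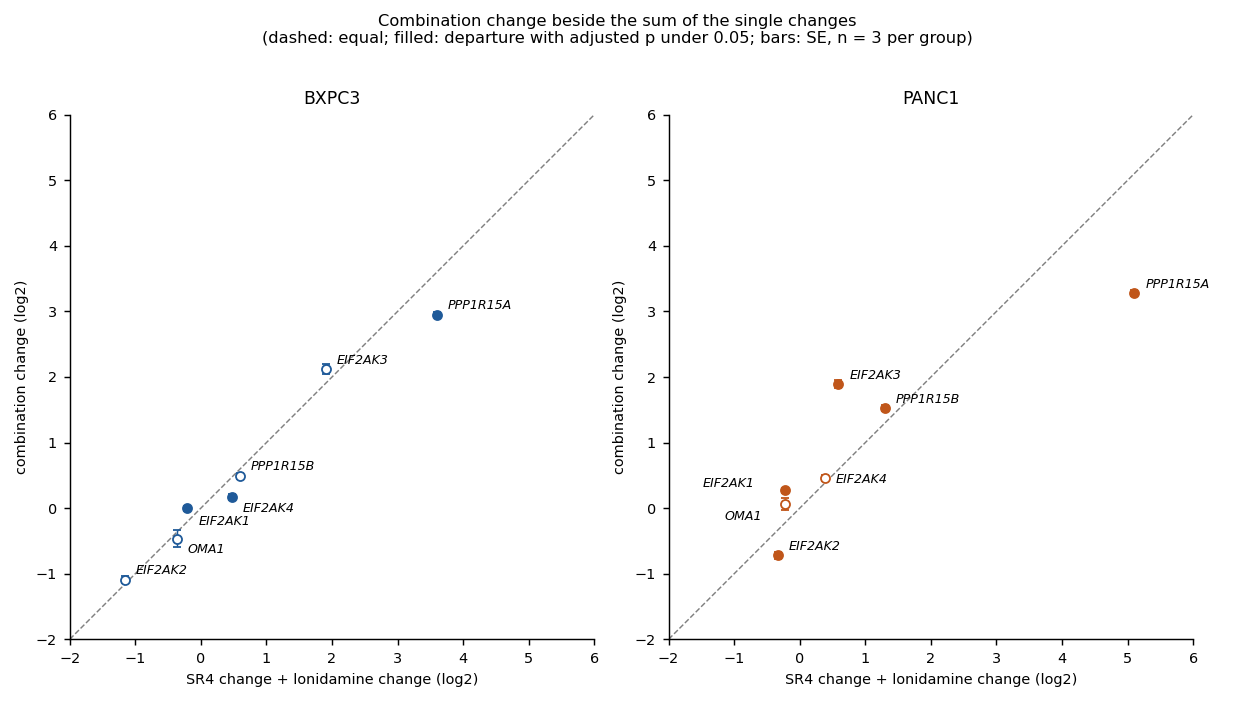
Combination change (vertical axis, log2 ± SE, n = 3 per group) beside the sum of the SR4 and lonidamine changes (horizontal axis, log2) for the 7 genes in each line. The dashed line marks equality and filled points passed the interaction test. PPP1R15A lies below the line in both lines, and EIF2AK3 lies above it in PANC1 by 1.30.

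Levels of different genes were compared only as CPM divided by the deposited gene length (CPM per kilobase). EIF2AK1 was the highest kinase in every group, at 47.5 ± 0.541 CPM per kilobase in BXPC3 vehicle and 75.6 ± 1.46 in PANC1 vehicle (SD, n = 3). EIF2AK3 was the lowest kinase with vehicle, at 3.08 ± 0.353 in BXPC3 and 5.08 ± 0.165 in PANC1. With the combination EIF2AK3 reached 13.3 ± 0.568 CPM per kilobase in BXPC3, where its libraries overlapped those of EIF2AK4 (13.1 ± 0.404) and stood above EIF2AK2 (11.04 ± 0.718). This order rests on the gene lengths: without division by length EIF2AK3 was still the lowest kinase in that group, with 12.2% of the summed kinase CPM against 20% for EIF2AK2 and 23.6% for EIF2AK4. In PANC1 with the combination EIF2AK3 was second among the kinases at 18.9 ± 0.264, above EIF2AK4 (8.95 ± 0.316) and EIF2AK2 (7.25 ± 0.370) without overlap. OMA1 was the lowest gene in every group except BXPC3 vehicle, where EIF2AK3 was lower, and in PANC1 vehicle its libraries overlapped those of EIF2AK3. Among neighbours in the order of the 7 genes, no other pair overlapped in any group.

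As a share of the summed kinase level per kilobase, EIF2AK3 went from 3.58 ± 0.384% with vehicle to 7.64 ± 0.617% with SR4, 7.27 ± 0.103% with lonidamine and 15.7 ± 0.764% with the combination in BXPC3 (SD, n = 3). In PANC1 it stood at 5.13 ± 0.132%, 5.83 ± 0.528%, 7.47 ± 0.342% and 14.9 ± 0.117% in the same order. EIF2AK2 moved the other way, from 27.5 ± 0.478% to 13.0 ± 0.739% with the combination in BXPC3 and from 12.1 ± 0.228% to 5.74 ± 0.308% in PANC1. Without division by gene length these EIF2AK2 shares were 38.5% and 20% in BXPC3 and 19.9% and 9.98% in PANC1, so the sizes of the shares rest on the gene lengths while the direction was the same. EIF2AK1 held 52.7% to 57.9% of the sum in BXPC3 groups and 72.2% to 76.3% in PANC1 groups. The summed kinase level was 85.8 ± 1.89 CPM per kilobase with vehicle and 84.9 ± 0.867 with the combination in BXPC3, and 99.1 ± 1.91 and 126 ± 1.48 in PANC1. Per kilobase the combination sum lay inside the vehicle range of 83.6 to 87.0 in BXPC3, where lonidamine gave a lower sum of 74.3 ± 0.809. Without division by gene length the BXPC3 combination sum, 586 to 603 CPM, lay below the vehicle range of 637 to 668 CPM, so this result rests on the gene lengths.

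The ratio of PPP1R15A to PPP1R15B per kilobase was 2.49 ± 0.0220 with vehicle in BXPC3 and rose to 8.82 ± 0.312 with SR4, 5.65 ± 0.248 with lonidamine and 13.7 ± 0.590 with the combination (SD, n = 3). In PANC1 PPP1R15B was the higher of the pair with vehicle, with a ratio of 0.620 ± 0.0582, and PPP1R15A was the higher in all treated groups, at 3.09 ± 0.128, 1.72 ± 0.0407 and 2.08 ± 0.0948. The combination ratio in PANC1 lay below that of SR4, with PPP1R15B higher than under SR4 and PPP1R15A not distinguishable from it. Without division by gene length the log2 ratio was -0.36 with lonidamine and -0.09 with the combination in PANC1, so which subunit is the higher there rests on the gene lengths.

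**Figure D4:**
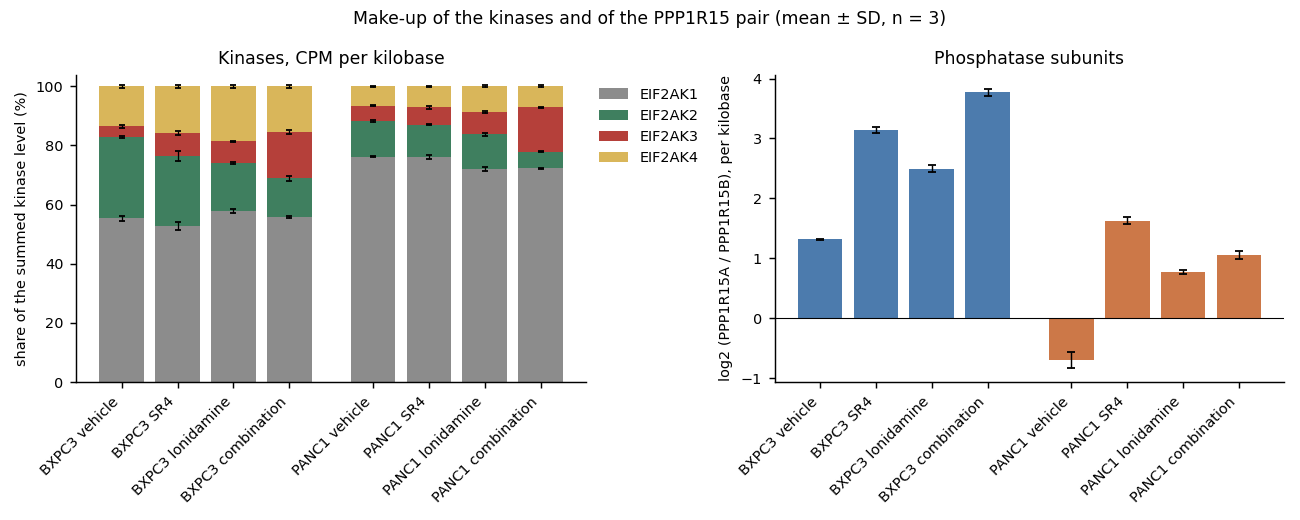
Left, share of each kinase in the summed kinase level (vertical axis, percent of CPM per kilobase) by line and treatment, stacked. Right, log2 ratio of PPP1R15A to PPP1R15B per kilobase. Error bars are SD (n = 3 libraries). The EIF2AK3 share reaches 15.7% and 14.9% with the combination, and the PPP1R15 ratio is below 0 on the log2 scale only in PANC1 vehicle.

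Differences between the lines were tested in a joint model of all 24 libraries. With vehicle all 7 genes differed (84.3% of all 13930 tested genes did). PANC1 held less PPP1R15A (-1.77 ± 0.050 log2, PANC1 minus BXPC3), EIF2AK2 (-1.09 ± 0.051) and EIF2AK4 (-0.94 ± 0.048), and more EIF2AK3 (0.62 ± 0.085), EIF2AK1 (0.57 ± 0.035), OMA1 (0.29 ± 0.10) and PPP1R15B (0.24 ± 0.048). The OMA1 difference lost its call without PANC1 vehicle replicate 3 (0.23 log2, adjusted p = 0.0728).

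The response to SR4 differed between lines for 4 of the 7 genes (51.2% of all genes). PPP1R15A rose more in PANC1 by 1.28 ± 0.063 log2 and PPP1R15B by 0.78 ± 0.065, while EIF2AK3 rose less (-0.97 ± 0.11, adjusted p = 2.20e-09). The difference in EIF2AK4 was small (-0.17 ± 0.067, adjusted p = 0.0306) and lost its call in 8 of 12 fits that left out a library. That call was also lost without the low-count filter (adjusted p = 0.0759). For lonidamine 3 genes passed (41.8% of all genes): EIF2AK2 fell less in PANC1 (0.87 ± 0.073, adjusted p = 1.06e-12), PPP1R15A rose more (0.24 ± 0.065), and EIF2AK3 rose less (-0.32 ± 0.11, adjusted p = 0.0207). The last call was lost without BXPC3 vehicle replicate 3 (adjusted p = 0.0760) or PANC1 lonidamine replicate 1 (adjusted p = 0.0587).

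For the combination the response of all 7 genes differed (61.9% of all genes), the clearest being PPP1R15B, which rose more in PANC1 by 0.99 ± 0.064 log2 (adjusted p = 1.48e-16). OMA1 differed by 0.48 ± 0.15, EIF2AK2 by 0.33 ± 0.076, PPP1R15A by 0.29 ± 0.063, EIF2AK4 by 0.25 ± 0.066 and EIF2AK1 by 0.23 ± 0.049. Each was a more positive change in PANC1, which for EIF2AK2 meant a smaller fall. EIF2AK3 rose less in PANC1 by this test (-0.26 ± 0.10, adjusted p = 0.0240), but the call was lost in 10 of 12 fits that left out a library, with values of -0.14 to -0.29 log2.

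Around each gene stands a list of partners, and the lists are described by counts of genes that passed against vehicle beside the median log2 change, which over all tested genes lay between -0.02 and 0.03. Of all genes tested in BXPC3, 33.4% rose and 33.9% fell with SR4, 34.8% and 32.7% with lonidamine, and 39.7% and 39.5% with the combination. In PANC1 the shares were 35% and 36.7%, 35% and 34.2%, and 40.1% and 40.9% in the same order. Of 11 eIF2 and eIF2B subunits and helpers, 8 rose and 1 fell with SR4 and 10 rose and 1 fell with the combination in PANC1 (medians 0.30 and 0.61), while in BXPC3 they were split, with 5 rising and 5 falling under the combination (median -0.06). EIF2S1, which encodes eIF2alpha itself, fell with the combination in BXPC3 (-0.35 ± 0.045 log2) and rose in PANC1 (0.57 ± 0.041). EIF2B5, the catalytic subunit of eIF2B, did likewise (-0.43 ± 0.057 and 0.39 ± 0.055). EIF2S2 had the largest rise of the list in PANC1, from 223 to 511 CPM, and CDC123, an eIF2 assembly factor, the largest fall.

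Downstream of eIF2alpha, 17 of 18 tested genes rose with each treatment in BXPC3 (medians 2.21, 2.20 and 2.48 for SR4, lonidamine and the combination). In PANC1 17, 16 and 18 of 19 rose (medians 3.13, 2.93 and 2.26). ATF4 rose by 1.59 ± 0.035 log2 with the combination in BXPC3 and by 1.94 ± 0.038 in PANC1. CEBPG, its dimer partner, rose by 1.99 ± 0.042 and 1.58 ± 0.040. DDIT3, which encodes CHOP, a known activator of PPP1R15A, went from 8.74 to 198 CPM in BXPC3 and from 16.5 to 275 CPM in PANC1. In PANC1 the SR4 and combination levels were 249 and 275 CPM for DDIT3, 549 and 492 CPM for TRIB3, and 559 and 598 CPM for ATF4. Libraries of these 2 groups did not overlap for any of these genes, and TRIB3 was lower with the combination. ATF5, a known target of the pathway, was the exception, falling from 164 to 83.0 CPM in BXPC3 and from 133 to 32.3 CPM in PANC1 with the combination.

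The list around PERK held 14 genes of the endoplasmic reticulum stress response, of which 9 rose with SR4, 9 with lonidamine and 12 with the combination in PANC1 (medians 0.77, 0.51 and 1.57), and none fell with the combination there. In BXPC3 10 rose and 3 fell with the combination (median 0.89). HSPA5, the chaperone that holds PERK inactive, rose in PANC1 by 3.16 ± 0.031 log2 with SR4, a comparison in which EIF2AK3 did not pass, and by 3.74 ± 0.032 with the combination. In BXPC3 HSPA5 rose by 0.70 ± 0.028 and 1.11 ± 0.028 log2. ERN1, the sensor known as IRE1alpha, rose by 3.06 ± 0.054 log2 in BXPC3 and 2.73 ± 0.075 in PANC1 with the combination. ATF6, another sensor of this stress, rose by 0.84 ± 0.041 and 2.66 ± 0.043. DNAJC3, an inhibitor of PERK and PKR, rose by 0.94 ± 0.041 and 1.60 ± 0.048. HERPUD1 had the largest rise of the list in PANC1, from 19.5 to 359 CPM, and CRELD2 the largest fall in BXPC3, from 24.6 to 10.1 CPM.

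Interferon-stimulated genes, of which EIF2AK2 is known to be one, formed a list of their own. Of 14 tested in BXPC3, 10 fell with SR4, 12 with lonidamine and 12 with the combination (medians -0.67, -2.27 and -2.98). Of 12 in PANC1, 6, 6 and 9 fell (medians -0.40, -0.64 and -1.50), beside 36.7%, 34.2% and 40.9% of all genes. IFIT1, an RNA-binding interferon-induced gene, went from 102 to 3.59 CPM in BXPC3 and from 28.6 to 2.31 CPM in PANC1 with the combination. STAT2 (0.83 ± 0.044 log2 in BXPC3) and IRF7 (1.91 ± 0.094 in PANC1) rose against the rest of the list. Of 13 PKR regulators, 9 fell and 4 rose with the combination in BXPC3 (median -0.49), and 6 fell and 1 rose in PANC1 (median -0.20), where 7 of 13 passed beside 81.1% of all genes. ADAR, which edits double-stranded RNA, fell in BXPC3 (-0.46 ± 0.044) and gave 0.01 ± 0.037 log2 in PANC1. PRKRA, the protein activator of PKR, rose by 0.39 ± 0.070 log2 in BXPC3 and gave 0.06 ± 0.051 in PANC1, and TARBP2, an inhibitor, fell in BXPC3 (-0.49 ± 0.11) and gave -0.17 ± 0.080 in PANC1.

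Of 15 genes around HRI, covering heme synthesis, heme breakdown and the mitochondrial signal, 5 rose and 7 fell with the combination in BXPC3 (median -0.18) and 6 rose and 6 fell in PANC1 (median 0.09). The 12 of 15 that passed in each line are near the 79.2% and 81.1% of all genes that did. HMOX1, the heme-degrading oxygenase, rose from 3.04 to 53.2 CPM in BXPC3 and from 83.1 to 563 CPM in PANC1. ALAS1, the first enzyme of heme synthesis, rose with lonidamine by 0.50 ± 0.062 log2 in BXPC3 and 1.03 ± 0.043 in PANC1. CPOX of the same path had the largest fall in both lines, -0.93 ± 0.086 and -1.21 ± 0.11. DELE1 (listed under its older symbol KIAA0141) rose with the combination by 0.38 ± 0.083 and 0.41 ± 0.061 log2.

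The list around OMA1 held substrates and partners of the inner membrane and other mitochondrial genes, such as MFN1, MFN2 and DNM1L. Of its 19 genes, 15 fell and 1 rose with SR4 in BXPC3 (median -0.27), beside 33.9% of all genes that fell. With the combination 14 fell and 4 rose there (median -0.50), beside 39.5% of all genes that fell. PANC1 was more even, with 8 rising and 8 falling with SR4 and 8 and 10 with the combination (median -0.20). OPA1, the fusion protein that OMA1 cuts, fell with the combination in both lines (-0.51 ± 0.043 and -0.39 ± 0.042 log2). YME1L1, the protease that cuts OPA1 at another site, rose in both (0.23 ± 0.035 and 0.91 ± 0.035). PHB2, a prohibitin scaffold, fell in BXPC3 (-0.32 ± 0.041) and rose in PANC1 (0.18 ± 0.049).

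Of 12 genes around GCN2, 7 rose and 3 fell with the combination in BXPC3 (median 0.20) and 8 rose and 1 fell in PANC1 (median 0.28). The 10 and 9 of 12 that passed are near the 79.2% and 81.1% of all genes. GCN1, the ribosome-bound activator of GCN2, rose by 0.37 ± 0.045 and 0.42 ± 0.039 log2, and IMPACT, an inhibitor, by 0.22 ± 0.071 and 0.28 ± 0.056. GTPBP2, a ribosome rescue factor, had the largest rise of the list in both lines, from 36.4 to 173 CPM and from 41.9 to 103 CPM.

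Of 8 phosphatase partners of the PPP1R15 subunits, 3 rose and 4 fell with the combination in BXPC3 (median -0.20) and 4 rose and 3 fell in PANC1 (median 0.10). In each line 7 of 8 passed, beside 79.2% and 81.1% of all genes. The 3 catalytic subunits were split with the combination: PPP1CA fell in both lines (-0.33 ± 0.049 and -0.67 ± 0.046 log2), PPP1CC fell in both (-0.71 ± 0.044 and -1.21 ± 0.042), and PPP1CB rose (0.21 ± 0.044 and 0.70 ± 0.037). ACTB, whose product joins the phosphatase complex, had the largest fall of the list in BXPC3, from 6699 to 3331 CPM. NCK1, an adaptor of the PPP1R15B complex, rose in PANC1 (0.88 ± 0.064) and gave -0.06 ± 0.067 log2 in BXPC3. Among 14 other regulatory subunits of the phosphatase, 8 rose and 6 fell with the combination in BXPC3 (median 0.29), and of 13 tested in PANC1 7 rose and 4 fell (median 0.33). PPP1R18 in BXPC3 and PPP1R3B in PANC1 rose most, each by 1.49 log2, which is below PPP1R15A in both lines.

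**Figure D5:**
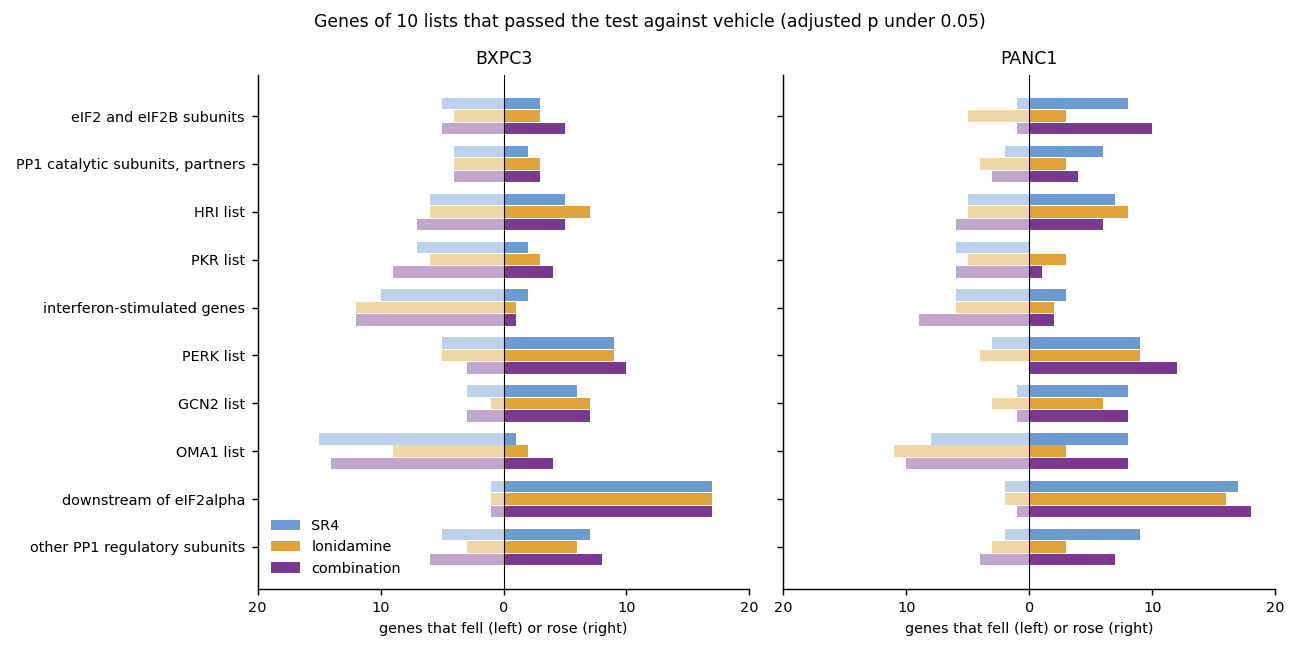
Number of genes of each of 10 partner lists that fell (left, pale) or rose (right, solid) against vehicle at an adjusted p under 0.05, by treatment and line. Most genes downstream of eIF2alpha rose with every treatment, and 12 of 14 interferon-stimulated genes fell with the combination in BXPC3. In PANC1, 6 of 12 fell with SR4 and 6 of 12 with lonidamine, and more fell with the combination.

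The pattern of each gene over the 24 libraries was compared with that of 10408 other genes by Pearson's r of log2 CPM, after each line's mean was removed. These are descriptions, since the libraries share treatments and depth. PPP1R15A was most like CREBRF (r = 0.994), GAS5 (0.991) and ATXN2L (0.986). EIF2AK3 was most like PGM3 (0.983), GOLT1B (0.979) and SEC23A (0.978), of which SEC23A is a coat protein of transport from the endoplasmic reticulum. EIF2AK2 was most like the interferon-stimulated genes IFIT3 (0.965), PARP9 (0.959) and OAS3 (0.951). PPP1R15B was most like MORC3 (0.978), YRDC (0.973) and TERF2IP (0.972), EIF2AK1 most like MBD4 (0.955), SCFD2 (0.954) and TOP3A (0.936), and EIF2AK4 most like CCDC113 (0.929), SDCCAG8 (0.928) and RPAP2 (0.926). OMA1 had no close match, its best being SREK1 (0.780), MX2 (0.757) and SLC39A3 (0.755), the last with r = 0.458 within the 12 libraries of PANC1. Among the 7 genes the highest r was that of PPP1R15A with PPP1R15B (0.820), followed by EIF2AK3 with PPP1R15A (0.738), and the lowest was EIF2AK2 with EIF2AK3 (-0.778).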

How the data were processed

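RNA-seq gene counts, as deposited by the authors in 1 table per line, were used unchanged, with the gene length in kilobases of the same tables, a value of another kind that the authors deposited. The submitters' processing notes list the aligner STAR (2.7.8a), the builds GRCh38 and hg38, and Partek and DESeq2, with no role or order. Counting tool, annotation release and strandedness are not given in the sources here. All 7 coordinates were equal to GENCODE gene spans on GRCh38. In BXPC3 the third SR4 column carries another number than its sample title and was kept as an unnumbered replicate.

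The 7 genes, the 10 partner lists and the tests were chosen with earlier results of these data known. Counts were fitted in edgeR 4.0.16 (R 4.3.3): TMM scaling, filterByExpr with a minimum count of 10, 4 groups per line (8 residual degrees of freedom) or 8 groups of 24 libraries (16 degrees of freedom), quasi-likelihood test, Benjamini-Hochberg adjustment over 12920, 12514 or 13930 genes. SE was taken as the absolute log2 change divided by the root of its F value. TMM factors lay between 0.964 and 1.04. CPM was scaled within a line, so levels set across lines come from tables normalised separately, and differences between lines use the joint model. Log2 CPM for the correlations used a prior count of 2. The scripts were tested on simulated data.

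Named were the 7 genes, a fixed panel of partners (not all of which is reported here), the largest rise and fall of each list with the combination (mean log2 CPM of at least 2), the 3 genes most like each of the 7, and the markers. Of 140 list entries 3 were matched by synonym and 0 were unmatched. Alternatives were DESeq2 1.42.0 (size factors, Wald test), leaving out each library, fitting only the compared groups, a replicate block, and dropping the low-count filter. Protein sequences were not used here.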

Additional observations from a re-analysis of the deposited data

Results flagged for a closer look

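A difference in response between the 2 lines, tested as an interaction in the joint model, drew attention for 14 combinations of gene and treatment. All are given as PANC1 minus BXPC3 on the log2 scale. With SR4 these were PPP1R15A (1.28), PPP1R15B (0.78), EIF2AK3 (-0.97) and EIF2AK4 (-0.17). With lonidamine they were EIF2AK2 (0.87), PPP1R15A (0.24) and EIF2AK3 (-0.32). With the combination they were PPP1R15B (0.99), OMA1 (0.48), EIF2AK2 (0.33), PPP1R15A (0.29), EIF2AK4 (0.25), EIF2AK1 (0.23) and EIF2AK3 (-0.26). The EIF2AK4 difference with SR4 and the EIF2AK3 difference with the combination lost their calls in most fits that left out a library.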

How the results depend on the processing

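Of 126 log2 changes of the 7 genes, 90 passed and 36 did not. No change that passed reversed in any of 1093 alternative values, each being 1 change under 1 alternative setting. Many of these values came from the same refit. Of those that passed, 10 lost their call somewhere, and of those that did not, 7 gained a call. The number of genes that passed moved by over 1.5 times in a single comparison, SR4 against vehicle in PANC1, where it ranged from 3 to 5 when a library was left out. The counts over all genes lay between 0.822 and 1.07 times those reported.

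The replicate numbers did not pair the libraries: same-numbered libraries correlated at -0.08 to 0.08 in BXPC3 and -0.14 to 0.09 in PANC1 after group means were removed, and 0 of 11 and 2 of 12 libraries were closest to their own number. With the replicate number as a block, the EIF2AK4 difference in SR4 response lost its call (-0.17, adjusted p = 0.0709), and no other call changed.

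Signs turned only in values that had not passed. By leaving out a library, EIF2AK1 ranged from -0.011 to 0.0095 (combination, BXPC3), PPP1R15B from -0.010 to 0.046 (combination against lonidamine, BXPC3), EIF2AK4 from -0.031 to 0.0027 and OMA1 from -0.058 to 0.23 (SR4 against lonidamine, BXPC3), and OMA1 from -0.21 to 0.095 (interaction, BXPC3). EIF2AK4 in SR4 against lonidamine gave 0.00037 with only the groups compared. For differences between lines in the SR4 response, EIF2AK1 ranged from -0.015 to 0.038, EIF2AK2 from -0.057 to 0.071 and OMA1 from -0.0084 to 0.083. EIF2AK1 gave -0.050, -0.049 and -0.013 with DESeq2 size factors, the Wald test and the replicate block, OMA1 -0.033, -0.032 and -0.055, and EIF2AK2 0.061 with the block. In the lonidamine response EIF2AK1 ranged from -0.031 to 0.022 and gave -0.039 and -0.039 with DESeq2 size factors and the Wald test. Without division by gene length the log2 ratio of PPP1R15A to PPP1R15B turned to -0.36 with lonidamine and -0.085 with the combination in PANC1. All 32 kinase shares moved by more than their spread with that change, which alters only the division by length. The cause of the other sign changes was not tested. Depth limits OMA1 most, with 90 to 222 counts per library.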
